A study of Danio rerio with 24 samples.

Results

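The genes described here are 7 transcription factor genes of the early zebrafish ectoderm and nervous system: foxd3, 1 foxb1 gene, sox2, sox3, sox19a, sox11a and zic2b. foxd3 (ENSDARG00000021032) and foxb1 (ENSDARG00000053650) were taken by identifier and the others by symbol, in every one of 24 count tables of 32520 identifiers. The symbol table gave 1 row each for sox2 (ENSDARG00000070913), sox3 (ENSDARG00000053569) and sox19a (ENSDARG00000010770), but it holds neither sox11a nor zic2b. It gives SOX11 to ENSDARG00000077811 and ENSDARG00000095743, and ZIC2 to ENSDARG00000015554 and ENSDARG00000037178, without saying which copy is which. Both copies of each are therefore given, written SOX11-077811, SOX11-095743, ZIC2-015554 and ZIC2-037178 after the end of their identifiers, so that 9 rows stand for the 7 names. In total, 5 rows are matched to 1 name and 4 are candidates for sox11a and zic2b.

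The libraries came from whole embryos of wild-type zebrafish of the TLAB strain, collected at 4 and 3 hours post fertilization (hpf), with 4 libraries in each of 6 groups. At each time there were embryos exposed to actinomycin D at 10 µg/ml, embryos kept with 1 µM oligomycin, and untreated embryos kept alongside in the same E3 medium. Actinomycin D blocks transcription by binding DNA, and oligomycin inhibits the mitochondrial ATP synthase. The treatment protocol has both inhibitors in the medium from laying onwards, whereas the design text describes injected actinomycin embryos, so the route of actinomycin D was taken as unsettled. The study asked whether zygotic genes are switched on in oligomycin embryos, and used actinomycin D embryos, whose transcription is blocked, as a control. Nothing says whether libraries of a group came from separate clutches, so p-values measure the spread between these libraries.

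The early zebrafish embryo runs on maternal RNA until the mid-blastula stage, when its own genome is switched on by maternal transcription factors that include Nanog, Pou5f3 and the SoxB1 protein Sox19b. SoxB1 genes (sox2, sox3, sox19a, sox19b) encode HMG-box factors that keep cells in an undifferentiated state and later mark the neural plate. SoxC genes (sox11 copies) encode related factors known from neuronal differentiation, Zic genes encode zinc finger factors of the neural plate and its border, foxd3 encodes a forkhead factor best known from pluripotent cells and the neural crest, and foxb1 encodes a forkhead factor of the developing nervous system.

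Library totals ran from 1453642 to 3431533 counts with a median of 2675171. Reads were counted near the 3′ ends of transcripts. Levels are in CPM, which divide counts by library size, itself adjusted by the trimmed mean of M-values (TMM), so they are relative to the rest of the RNA of a library. A gene was called changed at a Benjamini-Hochberg adjusted p under 0.05 over the 11238 genes that passed a filter on low counts, by edgeR's quasi-likelihood test on all 24 libraries. The filter kept 8 of the 9 rows and left out sox2. It asked for enough counts in at least 4 libraries, which untreated 4 hpf embryos alone can supply, so a count of rows called against that group describes these rows and is no further support. Because whole embryos were sequenced, fewer cells expressing a gene and less RNA per cell cannot be told apart.

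The count floor was set at 3 counts over the 4 libraries of a group. Of these genes, sox2 was nearest to it throughout: it had 0 counts in actinomycin D and in oligomycin embryos at 4 hpf, against 1, 1, 0 and 2 counts in untreated embryos at 4 hpf. At 3 hpf sox2 had 0 counts in actinomycin D embryos, 1 count in 1 oligomycin library, and 0 counts in untreated embryos. A group total of 0 allows a mean level of up to 0.271 to 0.296 CPM in those groups with none, counting error only, so sox2 RNA was not detectable at this depth in those groups, and its 4 counts in untreated 4 hpf embryos lie just above the floor. foxb1 had 0 counts in all 8 actinomycin D libraries, 3 counts in all in oligomycin embryos at 3 hpf, which is at the floor, and 6 in untreated embryos at 3 hpf. foxd3 and sox19a had 0 counts in the 4 actinomycin D libraries at 3 hpf and lay above the floor in every other group. The other 5 rows lay above the floor in all 6 groups.

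**Figure D1:**
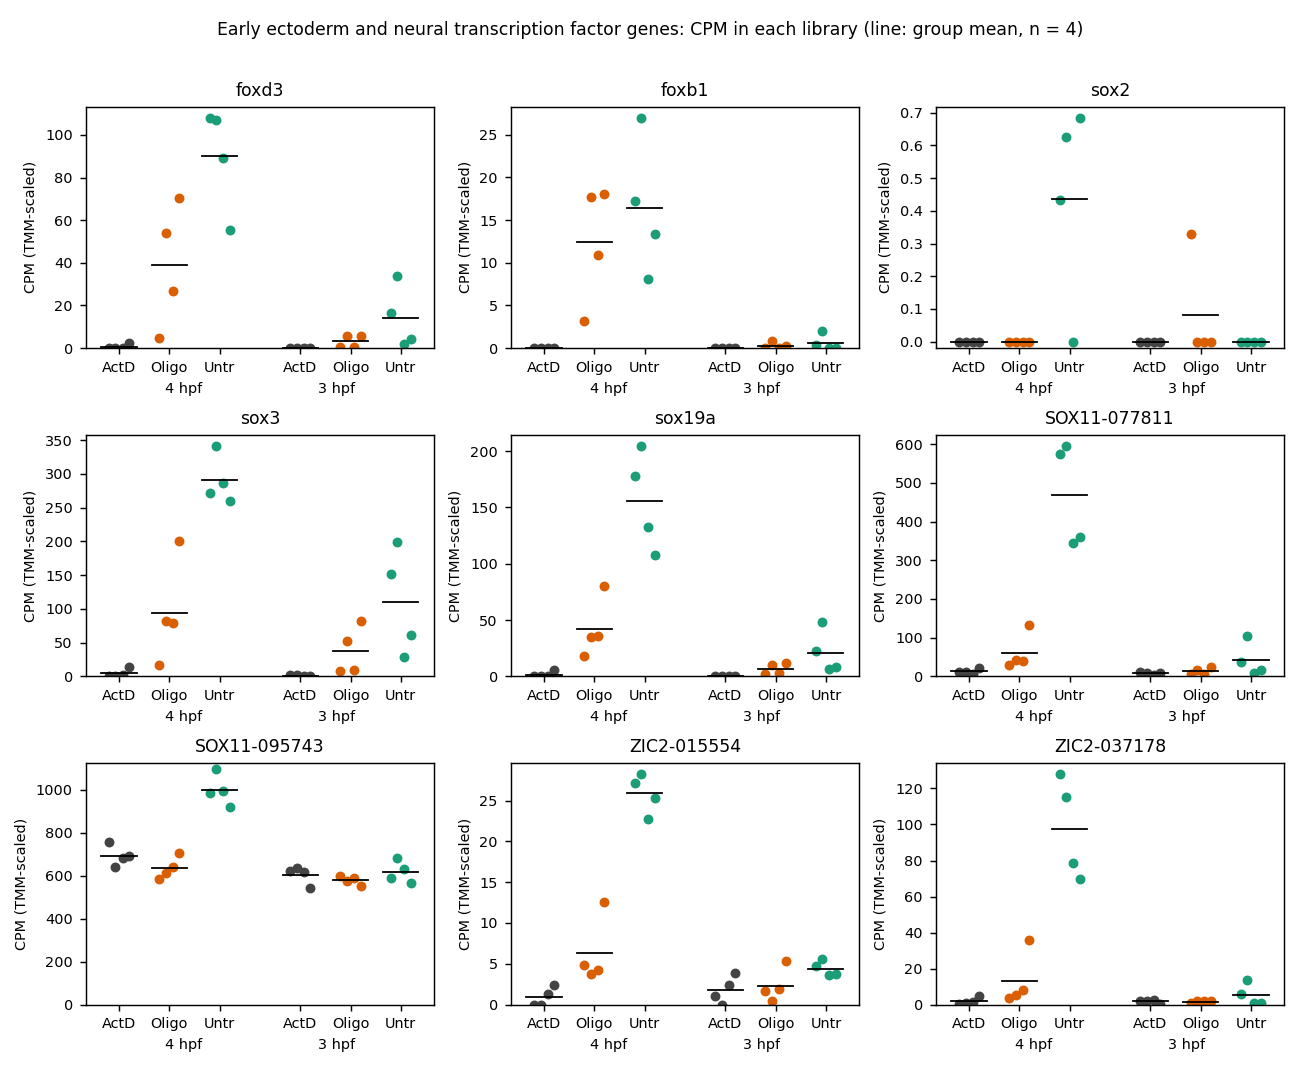
CPM (TMM-scaled) of the 9 rows in each of the 24 libraries, by treatment (ActD, actinomycin D; Oligo, oligomycin; Untr, untreated) and time; each point is a library, drawn from replicate 1 at the left to 4 at the right of its group, and lines are group means (n = 4). At 4 hpf the untreated libraries lie above the oligomycin libraries in the rows other than sox2, foxd3 and foxb1. How often this holds over all genes was not counted. foxd3 and foxb1 overlap, and SOX11-095743 is high in every group.

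In untreated embryos these genes were mostly low at 3 hpf and high at 4 hpf. Of the 8 rows tested, 7 rose with time (3 of the 4 tested rows matched to 1 name), where 12.8% of all genes were called higher at 4 hpf. The median log2 fold change was 2.80 over the 8 rows and 0.00 over all genes. ZIC2-037178 had 128, 115, 78.4 and 69.5 CPM at 4 hpf, against 5.84, 13.4, 1.08 and 0.623 CPM at 3 hpf in untreated embryos. Its log2 fold change was 4.26 (SE 0.68, adjusted p = 0.000132). foxb1 had 17.3, 27.0, 8.09 and 13.4 CPM at 4 hpf, against 0.389, 1.98, 0 and 0 CPM at 3 hpf, or 4.76 higher in log2 (SE 0.77, adjusted p = 0.000207), a value that rests on 6 counts at 3 hpf. In neither gene did the times overlap.

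SOX11-077811 was at 574, 595, 344 and 361 CPM at 4 hpf, against 37.4, 104, 8.64 and 17.1 CPM at 3 hpf in untreated embryos (log2 fold change 3.50, SE 0.62, adjusted p = 0.000352). The other copy, SOX11-095743, had 987, 1097, 992 and 921 CPM at 4 hpf, against 587, 681, 632 and 568 CPM at 3 hpf. It rose by 0.70 in log2 terms (SE 0.093, adjusted p = 1.32e-05), a small change set against replicates that lie close together. ZIC2-015554 rose to 25.9 ± 2.38 CPM at 4 hpf, against 4.39 ± 0.903 CPM at 3 hpf (SD, n = 4 each; log2 fold change 2.55, SE 0.53, adjusted p = 0.00089). sox19a averaged 156 ± 43.5 CPM at 4 hpf and 21.2 ± 19.1 CPM at 3 hpf (log2 fold change 2.90, SE 0.66, adjusted p = 0.00387), and foxd3 averaged 90.0 ± 24.6 CPM at 4 hpf and 14.0 ± 14.6 CPM at 3 hpf (log2 fold change 2.71, SE 0.78, adjusted p = 0.0163).

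Of the 3 SoxB1 genes of the list, sox3 had the highest count in every untreated library at 3 hpf. It had 272, 341, 287 and 261 CPM in untreated embryos at 4 hpf, against 151, 199, 28.1 and 61.0 CPM at 3 hpf. The times did not overlap, but the log2 fold change of 1.41 (SE 0.70) did not pass, with an adjusted p of 0.148 and of 0.0665 with the library set as a block. Untreated 3 hpf embryos differed between library series for most of these genes: the 2 libraries of the first series of library numbers had 16.4 and 33.6 CPM of foxd3, and the 2 of the second 1.80 and 4.05 CPM. What the series marks is not stated in the labels.

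Actinomycin D embryos at 4 hpf held little of these RNAs, apart from SOX11-095743. All 8 rows tested were lower than in untreated embryos (4 of 4 matched to 1 name), where 7.12% of all genes were called lower. foxb1 was at 0 counts in each actinomycin D library, against 40, 43, 22 and 39 counts in untreated embryos (adjusted p = 4.52e-05). Its group mean was at least 55.5-fold lower, a bound that leaves out the spread between untreated libraries. foxd3 had 0, 0, 0 and 7 counts in actinomycin D embryos, against 250, 171, 243 and 162 counts in untreated embryos (log2 fold change -6.93, SE 1.17, adjusted p = 0.000437). sox19a had 0, 0, 0 and 16 counts in actinomycin D embryos, against 412, 326, 360 and 316 counts in untreated embryos (log2 fold change -6.59, SE 0.92, adjusted p = 7.21e-05). All the counts of foxd3 and sox19a in actinomycin D embryos at 4 hpf came from replicate 4, which also had 40 of the 48 sox3 counts.

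sox3 had 0.466, 1.04, 1.55 and 14.0 CPM in actinomycin D embryos at 4 hpf, against 290 ± 35.6 CPM in untreated embryos (SD, n = 4; log2 fold change -5.95, SE 0.96, adjusted p = 0.000166). SOX11-077811 kept 12.6 ± 6.76 CPM in actinomycin D embryos, against 469 ± 135 CPM in untreated embryos (SD, n = 4 each; log2 fold change -5.21, SE 0.70, adjusted p = 2.26e-05). ZIC2-037178 stood at -5.48 in log2 fold change (SE 0.77, adjusted p = 2.96e-05) and ZIC2-015554 at -4.55 (SE 0.65, adjusted p = 1.59e-05). SOX11-095743 was at 756, 638, 681 and 689 CPM in actinomycin D embryos, against 999 ± 72.6 CPM in untreated embryos. It was lower by 0.53 in log2 terms (SE 0.093, adjusted p = 0.000158). These 8 calls were kept in each of 24 fits that left out 1 library.

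At 3 hpf, foxd3 had 0 counts in each actinomycin D library, against 42, 85, 5 and 13 counts in untreated embryos, and was not called (adjusted p = 0.160). sox19a was likewise at 0 counts in actinomycin D embryos, against 57, 121, 18 and 26 counts in untreated embryos (adjusted p = 0.0450). By group means foxd3 was at least 48.0-fold and sox19a at least 72.8-fold lower, counting error only. These bounds leave out the spread between untreated libraries, 1.80 to 33.6 CPM for foxd3 and 6.48 to 47.8 CPM for sox19a. sox3 had 3, 4, 2 and 2 counts in actinomycin D embryos, against 388, 503, 78 and 196 counts in untreated embryos (log2 fold change -6.61, SE 1.19, adjusted p = 0.0116). In these 3 genes no actinomycin D library reached an untreated one, which was not counted over all genes. The 2 called rows of 8, sox3 and sox19a, compare with 0.409% of all genes called lower. When the library set, which here pairs the libraries, was fitted as a block, sox3 kept its call (adjusted p = 0.0225) and sox19a lost it (adjusted p = 0.134). sox19a also lost it in 18 of the 24 fits without 1 library. In each fit without 1 actinomycin D library of 3 hpf no row was called, so sox3 lost its call there too. SOX11-095743 differed by -0.03 (SE 0.093, adjusted p = 1), with overlapping libraries. Both ZIC2 rows overlapped between these groups too: ZIC2-015554 averaged 1.82 ± 1.68 CPM in actinomycin D embryos and 4.39 ± 0.903 CPM in untreated embryos (SD, n = 4 each).

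Oligomycin embryos at 4 hpf carried RNA of every gene above except sox2, at lower levels for most. Of the 8 rows tested 5 were lower than in untreated embryos, both SOX11 rows, both ZIC2 rows and sox19a, the last being the 1 row called of the 4 matched to 1 name; 9.05% of all genes were called lower. The median log2 fold change was -1.73 over the 8 rows and -0.04 over all genes. Over all genes 1383 were called higher and 1017 lower, a split that moved to 1703 higher and 638 lower when libraries were scaled by total counts. The library set was not read as pairing the libraries here, because set 1 fell short of the check described under processing (r = 0.076). Sets 2, 3 and 4 had r = 0.494, 0.476 and 0.184, so a pairing is not excluded. With the set as a block 6 of the 8 rows were called, and 1789 of 11238 genes were called lower.

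The largest log2 differences were in 3 of the 4 SoxC and Zic rows. SOX11-077811 had 28.9, 42.4, 40.2 and 134 CPM in oligomycin embryos, against 574, 595, 344 and 361 CPM in untreated embryos at 4 hpf, so that all 4 oligomycin libraries lay below all untreated ones. The log2 fold change was -2.91 (SE 0.59, adjusted p = 0.00186), and the oligomycin mean was 13.1% of the untreated mean. ZIC2-037178 had 3.61, 5.37, 8.11 and 35.7 CPM in oligomycin embryos, against 128, 115, 78.4 and 69.5 CPM in untreated embryos. Its mean stood at 13.5% of untreated (log2 fold change -2.81, SE 0.61, adjusted p = 0.00256). ZIC2-015554 had 4.81, 3.76, 4.23 and 12.6 CPM in oligomycin embryos, against 27.2, 28.2, 22.8 and 25.3 CPM in untreated embryos, 24.5% of the untreated mean (log2 fold change -1.97, SE 0.51, adjusted p = 0.0072). In each of these 3 rows replicate 4 was the highest oligomycin library, yet below every untreated one.

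SOX11-095743, the copy abundant in every group, had 583, 613, 640 and 706 CPM in oligomycin embryos, against 987, 1097, 992 and 921 CPM in untreated embryos at 4 hpf. It was lower by 0.65 in log2 terms (SE 0.093, adjusted p = 4.23e-05), at 63.6% of untreated, and the groups did not overlap. The calls of both SOX11 and both ZIC2 rows were kept in every fit that left out 1 library.

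Among the SoxB1 genes, sox19a had 17.6, 34.9, 36.0 and 80.5 CPM in oligomycin embryos, against 178, 204, 132 and 108 CPM in untreated embryos at 4 hpf. Its mean was 27.1% of untreated, and the log2 fold change was -1.86 (SE 0.62, adjusted p = 0.0433). The call was lost in 10 of the 24 fits without 1 library. sox3 had 16.4, 81.6, 79.7 and 200 CPM in oligomycin embryos, against 272, 341, 287 and 261 CPM in untreated embryos. The sox3 mean was 32.5% of untreated and no oligomycin library reached an untreated one, but the log2 fold change of -1.60 (SE 0.70) did not pass (adjusted p = 0.112; 0.033 with the library set as a block).

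Neither forkhead gene passed between oligomycin and untreated embryos. foxd3 had 4.81, 54.2, 26.8 and 70.6 CPM in oligomycin embryos, against 108, 107, 89.4 and 55.5 CPM in untreated embryos at 4 hpf, with replicate 4 of oligomycin above replicate 4 of untreated. Its log2 fold change of -1.19 (SE 0.72) did not pass (adjusted p = 0.257). foxb1 had 3.21, 17.7, 10.9 and 18.01 CPM in oligomycin embryos, against 17.3, 27.0, 8.09 and 13.4 CPM in untreated embryos, and 3 of its 4 oligomycin libraries lay within the untreated range. The foxb1 mean was 75.9% of untreated and its log2 fold change of -0.37 (95% interval -1.42 to 0.67) did not pass (adjusted p = 0.671). The interval spans levels well below as well as above that of untreated embryos.

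**Figure D2:**
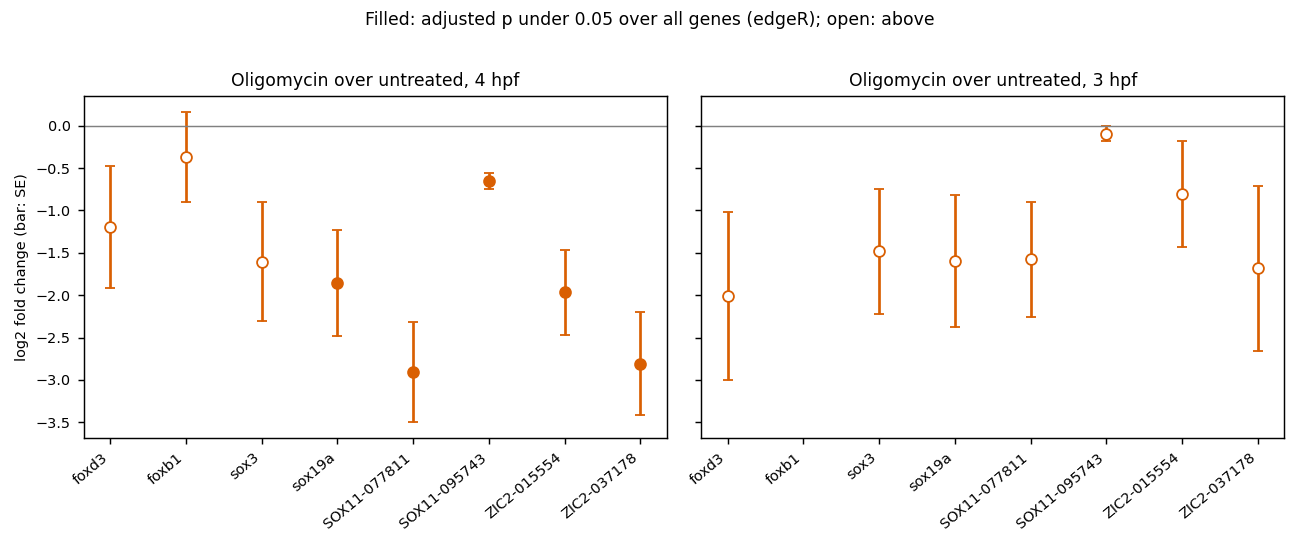
Log2 fold change of oligomycin over untreated embryos at 4 hpf (left) and 3 hpf (right) for the 8 rows tested, with bars of 1 SE from edgeR's fit over 24 libraries; filled points have an adjusted p under 0.05. At 4 hpf the values run from -0.37 for foxb1 to -2.91 for SOX11-077811, and at 3 hpf every point is open; foxb1 is not drawn at 3 hpf, where its oligomycin libraries are at the floor.

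The 2 library series did not give the same sizes. Fitted on the first series alone, the log2 fold changes of oligomycin over untreated at 4 hpf were -4.77 for ZIC2-037178, -4.04 for SOX11-077811, -2.88 for sox19a, -2.66 for ZIC2-015554 and -0.80 for SOX11-095743, each with an adjusted p under 0.05. Fitted on the second series alone, the same rows had -1.70, -1.97, -0.999, -1.45 and -0.47, and none was called. Over all genes, 1005 of 11212 were called lower in the first series and 7 of 11414 in the second, so few calls there are no trait of these rows. foxb1 was at -1.10 in the first series and at 0.47 in the second, sox3 at -2.68 and at -0.92, and foxd3 at -1.91 and at -0.52, none of them called in either.

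At 3 hpf no row was called between oligomycin and untreated embryos by edgeR or by DESeq2, 1 had an unadjusted p under 0.05, and 0% of all genes were called (486 at an unadjusted p under 0.05). All rows overlapped between these groups. sox3 had 7.55, 52.4, 8.99 and 81.6 CPM in oligomycin embryos, against 151, 199, 28.1 and 61.0 CPM in untreated embryos, 34.3% of the untreated mean (log2 fold change -1.48, SE 0.74). sox19a had 1.97, 9.68, 2.57 and 11.7 CPM in oligomycin embryos, against 22.2, 47.8, 6.48 and 8.10 CPM in untreated embryos, and foxd3 had 0.328, 5.65, 0.642 and 5.87 CPM in oligomycin embryos, against 16.4, 33.6, 1.80 and 4.05 CPM in untreated embryos. In the first series both libraries of each of these 3 genes were below the untreated libraries, and the log2 fold changes were -2.58, -2.64 and -3.14. In the second series they were 0.14 for sox3, 0.17 for sox19a and 0.41 for foxd3, with no call in either series.

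Set against actinomycin D embryos, oligomycin embryos at 4 hpf had more of every tested row but SOX11-095743. The 7 rows called higher (4 of 4 matched to 1 name) compare with 9.79% of all genes called higher. foxb1 had 8, 33, 31 and 60 counts in oligomycin embryos, against 0 in each actinomycin D library (adjusted p = 0.000375). Its group mean was at least 42.2-fold higher, a bound that leaves out the spread between oligomycin libraries. foxd3 had 12, 101, 76 and 235 counts in oligomycin embryos, against 0, 0, 0 and 7 counts in actinomycin D embryos (log2 fold change 5.74, SE 1.21, adjusted p = 0.00513). sox19a (4.74, SE 0.95, adjusted p = 0.00372) and sox3 (4.35, SE 0.96, adjusted p = 0.00537) followed in log2 fold change. Even the lowest oligomycin library, replicate 1, had 41 counts of sox3, against at most 40 in an actinomycin D library.

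The log2 fold changes over actinomycin D were smaller for ZIC2-037178 (2.67, SE 0.82, adjusted p = 0.037), ZIC2-015554 (2.59, SE 0.69, adjusted p = 0.0153) and SOX11-077811 (2.299, SE 0.68, adjusted p = 0.0315). ZIC2-037178 was the 1 called row whose libraries overlapped, with 3.61, 5.37, 8.11 and 35.7 CPM in oligomycin embryos, against 0.466, 1.04, 1.55 and 4.91 CPM in actinomycin D embryos. ZIC2-037178 and SOX11-077811 each lost the call in 4 of 24 fits without 1 library, and without oligomycin replicate 4 alone 4 of the 8 rows remained called. SOX11-095743 was at 635 ± 52.1 CPM in oligomycin embryos and 691 ± 48.7 CPM in actinomycin D embryos (SD, n = 4 each; log2 fold change -0.12, SE 0.093, adjusted p = 0.438), with overlapping libraries. At 3 hpf no row was called between these treatments by edgeR (3 at an unadjusted p under 0.05), which called 0.133% of all genes higher. DESeq2 called sox3 and sox19a, where it called 54 of 11238 genes higher and 2 lower. sox3 had 23, 130, 14 and 278 counts in oligomycin embryos at 3 hpf, against 3, 4, 2 and 2 counts in actinomycin D embryos.

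Levels also differed with time inside a treatment. In oligomycin embryos foxb1 was the 1 row of 8 called higher at 4 hpf than at 3 hpf, where 0.498% of all genes were called higher. It had 8, 33, 31 and 60 counts at 4 hpf, against 0, 2, 0 and 1 counts at 3 hpf, a scaled ratio of 43.9 (95% counting interval 14.7 to 215) with an adjusted p of 0.0114. The call was lost in 3 of the 24 fits without 1 library. The log2 fold changes of the other rows ran from 0.14 for SOX11-095743 to 3.53 for foxd3 and none passed, with an adjusted p of 0.124 for foxd3 and 0.165 for sox19a. sox19a, SOX11-077811 and ZIC2-037178 had no overlap between the times in oligomycin embryos, without a count of this over all genes. SOX11-077811 had 28.9, 42.4, 40.2 and 134 CPM at 4 hpf, against 6.56, 15.3, 6.42 and 24.4 CPM at 3 hpf. In actinomycin D embryos no row was called between 4 and 3 hpf by edgeR, with 1 at an unadjusted p under 0.05. Over all genes edgeR called 10.9% in either direction. DESeq2 called 1 row, sox19a, where it called 542 of 11238 genes higher and 1028 lower. All 16 sox19a counts in actinomycin D embryos at 4 hpf came from replicate 4, against 0 counts at 3 hpf, so that call rests on 1 library.

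Whether the effect of a treatment differed between the times was tested by interaction terms. SOX11-095743 was the 1 row of 8 called for oligomycin, where 1.02% of all genes were called in either direction: the oligomycin-to-untreated log2 fold change was 0.56 lower at 4 hpf than at 3 hpf (SE 0.13, adjusted p = 0.0404). It was also the 1 row called for actinomycin D, where 1.73% of all genes were called, with a log2 difference of -0.50 (SE 0.13, adjusted p = 0.0458). Those 2 calls were lost in 13 and in 17 of the 24 fits without 1 library. The level of SOX11-095743 was between 544 and 756 CPM in 20 of the 24 libraries, all but the untreated 4 hpf ones. Under the library set as a block the actinomycin D term was called for ZIC2-015554 also (adjusted p = 0.0204, against 0.0745 without the block).

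sox3 and sox19a belong to 1 family with the maternal gene sox19b, so their part of the family's counts was followed in each library, over sox2, sox3, sox19a, sox19b and 2 SOX1 rows. sox2, sox3 and sox19a together held 0.597% ± 0.984 of these counts in actinomycin D embryos at 4 hpf, 12.8% ± 7.75 in oligomycin embryos and 31.8% ± 6.60 in untreated embryos (SD, n = 4 each). At 3 hpf the shares were 0.145% ± 0.0649 in actinomycin D, 5.67% ± 4.73 in oligomycin and 13.5% ± 8.63 in untreated embryos. The rest was almost all sox19b, at 87.2% in oligomycin embryos and 68.2% in untreated embryos at 4 hpf. By library, sox19a took 2.17, 3.70, 3.63 and 6.61% of the family in oligomycin embryos, against 13.6, 15.0, 8.23 and 7.87% in untreated embryos at 4 hpf, with no overlap. sox3 took 2.02, 8.66, 8.04 and 16.4% in oligomycin embryos, against 20.8, 25.0, 17.9 and 19.0% in untreated embryos, again with no overlap. sox19b itself was at 855 ± 67.8 CPM in oligomycin embryos and 969 ± 167 CPM in untreated embryos at 4 hpf (SD, n = 4 each) and was not called. The shares are given as a description with no test.

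**Figure D3:**
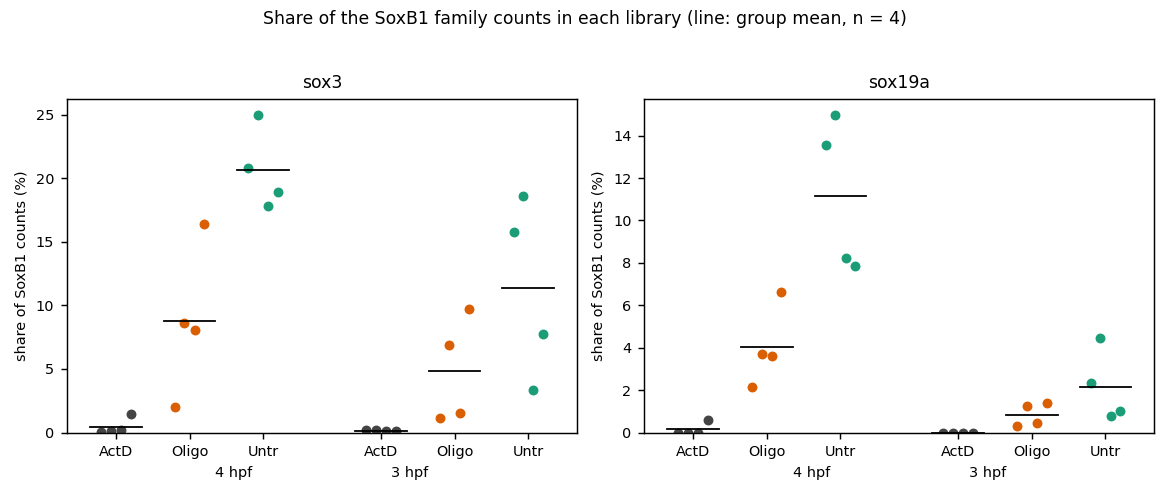
Share of the SoxB1 family counts (in percent, over sox2, sox3, sox19a, sox19b and 2 SOX1 rows) held by sox3 and by sox19a in each library, by treatment and time; points are libraries and lines are group means (n = 4). At 4 hpf the oligomycin shares of sox3 run from 2.02 to 16.4%, below the untreated range of 17.9 to 25.0%, and the actinomycin D libraries lie below both for each gene.

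The ratio between 2 rows inside a library does not depend on how the libraries are scaled. For all 28 pairs of the 8 rows tested, log2 count ratios were set side by side at 4 hpf, a comparison chosen after the values had been seen. In 14 pairs the oligomycin and untreated libraries did not overlap, each with an exact permutation p of 0.0286 (2-sided), the smallest that 4 libraries against 4 allow. Adjusted over the pairs these became 0.0571, so none passed. The 28 pairs reuse the same 8 rows, so they are not independent. How often pairs drawn from all genes lack overlap was not counted, so the tallies only describe these rows. foxb1 and ZIC2-037178 each had 5 of their 7 pairs among them, sox19a and both SOX11 rows 4 each, and foxd3, sox3 and ZIC2-015554 2 each. In the 5 pairs of foxb1 there was more foxb1 per partner in oligomycin embryos, and in those of ZIC2-037178 less ZIC2-037178. The ratio of foxb1 to SOX11-077811 was -2.30 ± 0.889 on the log2 scale in oligomycin embryos and -4.92 ± 0.405 in untreated embryos (SD, n = 4 each), a difference of 2.62. To ZIC2-037178 it differed by 2.91, to sox3 by 1.54, to sox19a by 1.51, and of foxd3 to foxb1 by -1.17. The ratio of sox3 to sox19a was 0.896 ± 0.669 in oligomycin embryos and 0.935 ± 0.308 in untreated embryos (exact permutation p = 0.914, n = 4 each), and the groups overlapped.

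**Figure D4:**
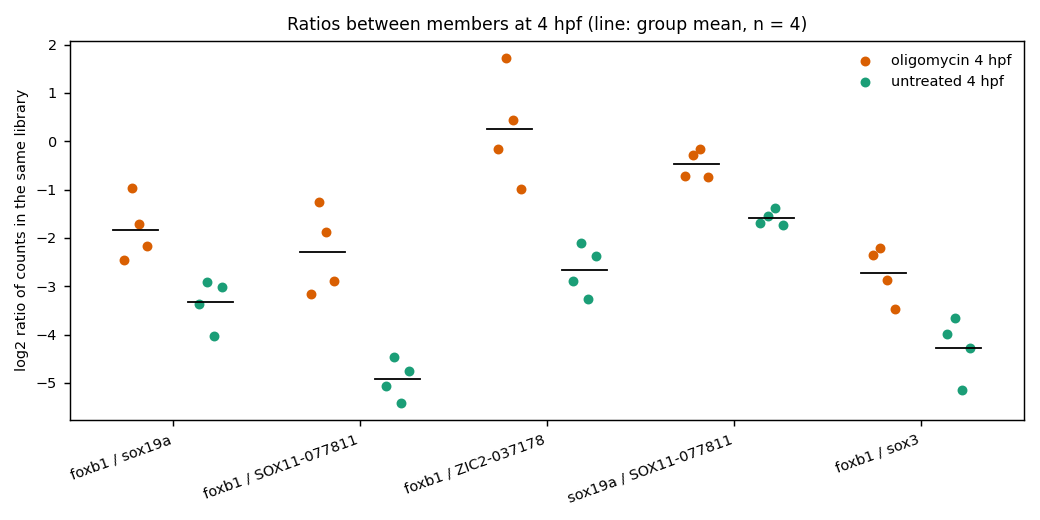
Log2 ratio of the counts of 2 genes in the same library at 4 hpf for 5 pairs without overlap, oligomycin (orange, left of each pair) and untreated (green, right); points are libraries and lines are means (n = 4). In the 4 ratios with foxb1 on top the oligomycin libraries lie above the untreated ones, as do those of sox19a over SOX11-077811.

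The genes named here stand beside 31 further identifiers of early neural and ectoderm transcription factors, 17 of which passed the filter; 2 of the names on that list, her3 and hesx1, had no match. In oligomycin against untreated embryos at 4 hpf 2 were higher and 2 lower, where 12.3% and 9.05% of all genes were called, and their median log2 fold change was 0.18. gbx1, a homeobox gene of the hindbrain region, was lower by 1.47 in log2 terms (SE 0.47, adjusted p = 0.028). This call was lost in 5 of the 24 fits without 1 library (adjusted p up to 0.115). otx1 is a homeobox gene of the anterior brain whose RNA was present at 3 hpf in every library. It had 402, 351, 385 and 366 CPM in oligomycin embryos, against 206, 213, 290 and 331 CPM in untreated embryos. Its level was higher by 0.53 (SE 0.12, adjusted p = 0.00312). From 3 to 4 hpf the otx1 mean went from 417 to 376 CPM in oligomycin embryos and from 408 to 260 CPM in untreated embryos. sox21a, a SoxB2 gene, was higher by 1.12 (SE 0.39, adjusted p = 0.0429), with overlapping libraries, and lost the call in 6 of the 24 fits (adjusted p up to 0.113). From 3 to 4 hpf its mean went from 7.51 to 8.79 CPM in oligomycin embryos and from 7.90 to 3.70 CPM in untreated embryos.

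zic5 (0.82, SE 0.30, adjusted p = 0.0521) and SIX3-054879 (1.08, SE 0.47, adjusted p = 0.101) did not pass, but both did with the library set as a block (adjusted p = 0.00125 for zic5 and 0.0463 for SIX3-054879). The second foxb1 row, FOXB1-089042, had 14.8 ± 12.3 CPM in oligomycin embryos and 15.3 ± 2.14 CPM in untreated embryos at 4 hpf (SD, n = 4 each; log2 fold change -0.05, SE 0.59, adjusted p = 0.967). In untreated embryos 5 of the 17 were higher at 4 hpf than at 3 hpf and 3 lower, where 12.8% and 14.6% of all genes were called. In actinomycin D against untreated embryos at 4 hpf 1 was higher and 6 lower, where 4.4% and 7.12% of all genes were called.

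Maternal activators of zygotic transcription were abundant in every group. nanog had 796, 916, 982 and 1356 CPM in oligomycin embryos, against 1780.4, 1639, 1539.6 and 1638 CPM in untreated embryos at 4 hpf, and was lower by 0.70 on the log2 scale. pou5f3 had 407, 449, 435 and 550 CPM in oligomycin embryos, against 762, 731, 580 and 639 CPM in untreated embryos, and was lower by 0.56. sox19b did not pass. In untreated embryos all 3 were called higher at 4 hpf than at 3 hpf, by 0.83, 0.57 and 0.31, where 12.8% of all genes were called higher. The oligomycin means at 3 and 4 hpf were 865 and 1013 CPM for nanog, and 414 and 460 CPM for pou5f3. Actinomycin D over untreated at 4 hpf gave log2 fold changes of -0.68 for nanog, -0.51 for pou5f3 and -0.0042 for sox19b.

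Markers of other cells of the embryo moved as well, and their part in the results above was not tested. Of 12 mesoderm and endoderm genes 9 were tested, and 3 were lower in oligomycin than in untreated embryos at 4 hpf, where 9.05% of all genes were called lower. Their summed level at 4 hpf was 124 to 832 CPM in oligomycin embryos (median 273) and 766 to 1847 CPM in untreated embryos (median 1237), and none of the 12 was at 0 counts in either group. Oligomycin replicate 4, the highest library for most genes above, was also the highest in that sum, at 832 CPM. Of 15 epidermal and enveloping layer genes 13 were tested and 7 were lower in oligomycin embryos (against the same 9.05%), with a sum of 1083 to 1520 CPM in oligomycin embryos and 1628 to 2281 CPM in untreated embryos. Of 8 yolk syncytial layer and germ cell genes 6 were tested and 3 were higher in oligomycin embryos (12.3% of all genes were called higher). Those 3 were the germ cell genes nanos3, dnd1 and ca15b, with log2 fold changes of 0.47, 0.54 and 1.13. The germ cell genes ddx4 (log2 fold change -0.21, adjusted p = 0.469) and tdrd7a (0.21, adjusted p = 0.189) were not called. mxtx2, of the yolk layer, was not called (log2 fold change -0.21, adjusted p = 0.787). The sum over the list was 1349 to 1721 CPM in oligomycin embryos and 987 to 1265 CPM in untreated embryos. hhex, of the yolk layer and later endoderm, was at 0 counts in both groups.

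Over the 24 libraries the log2 levels of foxd3, sox3 and sox19a followed each other closely, with a Pearson r of 0.979 for foxd3 with sox19a and 0.969 for sox3 with sox19a. SOX11-095743 had the lowest values, such as 0.47 with sox3 and 0.602 with foxd3, but reached 0.846 with ZIC2-037178 and 0.806 with SOX11-077811. By Spearman's rho, which uses ranks, SOX11-095743 had 0.375 with sox3, 0.388 with foxd3, 0.590 with ZIC2-037178 and 0.482 with SOX11-077811. The libraries share their 6 groups and sets, so these values describe the data and carry no test. The genes most like foxd3 by this measure were znf1126 (r = 0.987), si:zfos-44a5.1 and DUSP6; those most like sox19a were inka1a (r = 0.993), IER5 and drll.3; those most like sox3 were znf1127 (r = 0.987), ier2a and her11. foxb1 was most like SLC7A8 (r = 0.972), ndr2 and chrd, of which ndr2 and chrd encode a Nodal ligand and the BMP antagonist Chordin. SOX11-077811 was most like MCM6 (r = 0.981), polr3gla and MYCN; SOX11-095743 was most like CTCF (r = 0.944), khdrbs1a and MFAP3L. ZIC2-015554 was most like cdkn1ca (r = 0.938), cldn23.1 and BRD2, and ZIC2-037178 was most like nfil3-5 (r = 0.973), srsf5a and lye. Ranked by Spearman's rho, at most 1 of the 3 genes stayed among the top 3 for any row, so the choice depends on the measure. With a prior count of 0.5 in place of 2 in the log2 levels, 0 of the 3 stayed for SOX11-077811 and 3 for SOX11-095743. Under that prior count 1 or 2 stayed for each other row.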

How the data were processed

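Libraries were made from total RNA with the Lexogen QuantSeq 3′ kit, per the labels' protocols. What the authors deposited are raw read counts for each Ensembl gene identifier, per the file headers and values. The submitters' processing notes name Bowtie2 2.3.4.1, featureCounts, Subread 1.6.2 and build GRCz11; the annotation release, strand setting and use of molecular identifiers are not given in the sources used here, so near-identical copies may share reads. Symbols came from a table that matched 29201 of 32520 identifiers.

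In R 4.3.3, edgeR 4.0.16 filtered genes by group (filterByExpr, 11238 kept), scaled libraries by TMM and ran the robust quasi-likelihood test on all 24 libraries with a mean per group, for 9 pairwise comparisons and 2 interactions. The SE is the log2 fold change over the square root of F. DESeq2 1.42.0, other scalings, other filters, each library series, the library set as a block, and each library left out were alternatives. The procedure was tested on simulated counts. Floors and counting intervals cover counting error only.

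Library numbers in the titles form 4 sets of 1 library per group, in 2 series. Deviations from group means correlated above 0.1 in 57 of 60 same-set pairs (median 0.419). A pair of set 1 fell short in oligomycin against untreated embryos at each time, so the set was read as pairing in all other comparisons. Adjusted p-values are from the fit without the block unless the block is named, and that fit does not use the pairing. With the block, 7 of the 8 rows were called in untreated 4 against 3 hpf, where 2080 of 11238 genes were called higher (1437 without it). Actinomycin D against untreated at 4 hpf had 8, where 1001 genes were called lower (800 without it). Oligomycin against actinomycin D at 4 hpf had 7, where 1569 genes were called higher (1100 without it). These 3 counts of rows are the same without the block, although it called more genes. Actinomycin D against untreated at 3 hpf had 1 row with the block and 2 without, where 27 and 46 genes were called lower.

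The members, lists and tests were chosen with earlier results of these data known. Named are all member rows, at most 6 listed genes of smallest p in oligomycin against untreated embryos at 4 hpf, the maternal activators, and per row the 3 genes of highest Pearson r of log2 CPM (prior count 2). FOXB1-089042, nanos3, dnd1, ca15b, ddx4, tdrd7a and mxtx2 were added after their values were seen. One listed gene is not reported here. Coordinates and sequences were not used here.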

Additional observations from a re-analysis of the deposited data

Results flagged for a closer look

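In groups of 4 libraries, 1 library stood apart from its group by Dixon's criterion in 6 of 44 groups examined. Chance gives about 1 in 20 for independent, normally distributed values. These are counts, some near 0, of genes that vary together, so that rate is only a rough guide. Where 3 libraries are at 0, any count in the remaining library is flagged. Of these, 3 were actinomycin D replicate 4 at 4 hpf, which had 2.46 CPM of foxd3 (the other 3 libraries 0), 5.61 CPM of sox19a (the others 0) and 14.0 CPM of sox3 (the others 0.466 to 1.55). The other 3 were oligomycin replicate 4 at 4 hpf, with 133.9 CPM of SOX11-077811 (the others 28.9 to 42.4), 12.6 CPM of ZIC2-015554 (the others 3.76 to 4.81) and 35.7 CPM of ZIC2-037178 (the others 3.61 to 8.11).

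For SOX11-095743 the effect of a treatment was called as differing between 4 and 3 hpf, by an interaction term in edgeR. The log2 difference was -0.56 for oligomycin (adjusted p = 0.0404) and -0.50 for actinomycin D (adjusted p = 0.0458). Over all genes 1.02% and 1.73% were called for these terms. Both calls were lost in many of the fits without 1 library, as given above. They were also lost with total-count scaling and with no filter.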

How the results depend on the processing

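Counts here are of member rows called, of 8 tested, unless genes are named. The direction of every called log2 fold change held under each alternative. The filter of 10 counts in every library left 2 member rows to test, of which it called 2 in actinomycin D against untreated at 4 hpf, oligomycin against untreated at 4 hpf and untreated 4 against 3 hpf, 1 in oligomycin against actinomycin D at 4 hpf, and 0 in actinomycin D against untreated at 3 hpf and oligomycin 4 against 3 hpf. Of the 8085 genes it kept, the first 2 of these comparisons called 312 and 687 lower and the next 2 called 1072 and 791 higher. The last 2 called 0 genes. In actinomycin D against untreated at 3 hpf (2 called), DESeq2 called 4, no filter and the replicate block (library set) 1 each, and each series alone and the groups of the comparison alone 0. Genes called lower there were 46 in the main fit, 149 by DESeq2, 31 with no filter and 27 with the block. The first series called 20 genes lower, the second 0 and the groups alone 19. In oligomycin against untreated at 4 hpf (5), the second series alone called 0, where 7 of 11414 genes were called lower. In oligomycin against actinomycin D at 4 hpf (7), the first series and the groups alone called 3 and the second series 2. Genes called higher there were 1100 in the main fit, 778 in the first series, 791 with the groups alone and 250 in the second series. At 3 hpf (0), DESeq2 called 2, where it called 54 genes higher. In oligomycin 4 against 3 hpf (1), DESeq2 called 2, and each series and the groups alone 0. Genes called higher there were 56 in the main fit, 135 by DESeq2, 6 and 0 in the first and second series and 12 with the groups alone. In actinomycin D 4 against 3 hpf (0), DESeq2 called 1, where it called 542 genes higher and 1028 lower. The oligomycin interaction (1) had 0 calls with total-count scaling, no filter, each series and the groups alone. Genes called lower were 24 in the main fit, and 20, 25, 36 (first series), 0 (second series) and 2 in those settings. The actinomycin D interaction (1) had 0 with total-count scaling, no filter and the second series, 2 with the replicate block and 3 with DESeq2. Genes called lower were 113 in the main fit, and 104, 94, 0, 226 and 208 in those settings. The cause of these shifts was not tested. Each series alone and the groups alone hold fewer libraries, and the filter of 10 counts holds fewer rows. The block changed no other member count by over 1.5 times. Leaving out 1 library gave 0 to 2 calls in actinomycin D against untreated at 3 hpf and 8 to 8 at 4 hpf. The 0 calls at 3 hpf came in each fit without 1 actinomycin D library of 3 hpf. Oligomycin against untreated had 0 to 0 at 3 hpf and 4 to 6 at 4 hpf. Oligomycin against actinomycin D had 0 to 0 at 3 hpf and 4 to 7 at 4 hpf. With time there were 6 to 7, 0 to 3 and 0 to 0 in untreated, oligomycin and actinomycin D embryos. The oligomycin and actinomycin D interactions had 0 to 1 and 0 to 2. 

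Uncalled log2 fold changes that turned sign in the second series alone were, for oligomycin against untreated at 3 hpf, foxd3 0.41, sox3 0.14, sox19a 0.17, SOX11-077811 0.40, ZIC2-015554 0.13 and ZIC2-037178 1.09; at 4 hpf, foxb1 0.47; for actinomycin D against untreated at 3 hpf, ZIC2-037178 0.66; and for oligomycin against actinomycin D at 4 hpf, SOX11-095743 0.0055. SOX11-095743 in actinomycin D against untreated at 3 hpf (-0.03) ran from -0.065 without untreated replicate 4 to 0.023 without untreated replicate 2 when 1 library was left out, and was 0.020 without actinomycin D replicate 4. Between the fits without oligomycin replicate 4 and without replicate 1, the difference in ratio ran from -0.178 to 0.294 for sox3 over sox19a, from -0.107 to 0.632 for foxb1 over SOX11-095743 and from -0.0015 to 0.737 for sox3 over ZIC2-015554.

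Over all genes, calls for oligomycin against untreated at 4 hpf numbered 2400, with 164 (second series) to 3743 (replicate block) under alternatives; for actinomycin D against untreated at 4 hpf 1294, with 471 to 1853; for oligomycin against actinomycin D at 4 hpf 1340, with 253 to 2339; for untreated 4 against 3 hpf 3080, with 1307 to 4345, and a share of higher calls of 46.7% that became 33.4% with total-count scaling; and for actinomycin D 4 against 3 hpf 1228, with 219 to 2375. At 3 hpf they numbered 48 (0 to 151) for actinomycin D, 0 (0 to 4) for oligomycin and 17 (0 to 56) between the treatments, in oligomycin 4 against 3 hpf 58 (0 to 137), and in the oligomycin and actinomycin D interactions 115 (0 to 856) and 194 (0 to 457). sox2 and, at 3 hpf, foxb1 are limited by depth.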
